A study of Mus musculus with 4 samples.

Results

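Elastic fibres are the part of the extracellular matrix that lets a tissue recoil after stretch, and the mRNAs of 10 of their genes were examined in sorted Osr1+ cells of the embryonic mouse limb. The genes were *Eln*, *Fbn1*, *Fbn2*, *Mfap2*, *Mfap4*, *Mfap5*, *Fbln5*, *Efemp2*, *Emilin1* and *Emilin2*, taken by name for the proteins they encode out of 23284 gene symbols in the count data. All 10 had enough reads to be tested, among 15645 genes that did. The cells came from limbs of C57BL/6J embryos at E13.5 and were live, GFP-positive cells obtained by FACS. GFP was made from the *Osr1* GCE allele, in which a GFP and CreERT2 cassette is inserted in *Osr1*, the gene of a zinc finger transcription factor. The control cells came from 2 heterozygous GCE/+ embryos and the mutant cells from 2 homozygous GCE/GCE embryos, which lack *Osr1* function. Each sample thus carried the GCE allele, no wild-type cells were compared here, and each value comes from 1 embryo. The sort selected cells by GFP from the *Osr1* locus, whatever other cell type they belonged to. Carry-over of cells without GFP was not examined here. The question was which matrix genes of these cells differ when *Osr1* function is lost.

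An elastic fibre has a core of crosslinked elastin and a mantle of microfibrils, which are strings of fibrillin. Microfibrils are laid down first, small glycoproteins decorate them, and fibulins bring tropoelastin together with the lysyl oxidases that crosslink it. Fibrillin microfibrils also occur without elastin, in tissues such as tendon and muscle connective tissue, and they store latent TGF-beta and BMPs. In the limb bud, fibrillins are made by the mesenchyme well before mature elastic fibres form.

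Whether reads could be assigned to single members was examined first, since several are paralogs. Of the 50-base stretches in the transcripts of *Mfap2*, *Mfap4*, *Mfap5*, *Fbln5*, *Efemp2*, *Emilin1* and *Emilin2*, 0 occurred in the transcript of another gene, and no stretch was shared between any members. *Mfap5* and *Mfap2* encode the microfibril-associated glycoproteins MAGP2 and MAGP1, and the most similar 60-base windows of their coding sequences, from the GENCODE annotation of GRCm38, are shown because *Mfap5* carries the largest genotype difference described below. Capitals mark bases identical in both genes, 39 of 60 or 65%. The *Mfap5* window lies at chr6:122525974-122526033 on the plus strand, in exon 8 of 10, and the *Mfap2* window at chr4:141015006-141015065 on the plus strand, in exon 7 of 9.
Mfap5: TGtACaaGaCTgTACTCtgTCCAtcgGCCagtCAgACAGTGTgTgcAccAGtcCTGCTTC
Mfap2: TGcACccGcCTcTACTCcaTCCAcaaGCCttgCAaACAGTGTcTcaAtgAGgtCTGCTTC
*Emilin2* and *Emilin1* encode elastin microfibril interfacers, and their windows are shown because the ratio of these paralogs is reported below. They shared 43 of 60 bases, or 71.7%. The *Emilin2* window lies at chr17:71280754-71280813 on the minus strand and the *Emilin1* window at chr5:30915553-30915612 on the plus strand, both in exon 3 of 8.
Emilin2: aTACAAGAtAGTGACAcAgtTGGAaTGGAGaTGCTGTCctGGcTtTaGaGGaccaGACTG
Emilin1: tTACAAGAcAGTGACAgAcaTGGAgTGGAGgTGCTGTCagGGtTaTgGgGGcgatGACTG
The corresponding windows of *Fbn2* and *Fbn1* were the most alike, with 56 of 60 identical bases or 93.3%, and are not printed. No run of identical bases in either printed pair was as long as a 50-base read. The library kit does not mark strand, so reads of a member and of a gene on the opposite strand cannot be told apart where their exons overlap. Such an overlap covered 4.63% of the exon bases of *Mfap4* (with *Mapk7*), 4.57% of those of *Efemp2* (with *Mus81*), 20.1% of those of *Fbn1* (with *Gm9913*), 3.3% of those of *Eln* (with *Gm30003*) and 0.98% of those of *Fbn2* (with *Gm26507*). These are shares of exon bases, and the share of reads affected was not measured. Of the overlapping genes, only *Mapk7* and *Mus81* were in the count data.

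Total counts per sample ran from 52121596 to 61402140, so that 3 counts amounted to 0.0489 to 0.0576 CPM, which are counts scaled to a common library size. This limit covers counting error only. *Osr1* itself fell from 81.9 and 79.1 CPM in the control samples to 11.9 and 13.9 CPM in the mutants. By the quasi-likelihood test of edgeR, adjusted by Benjamini-Hochberg, its log2 fold change was -2.64 with an SE of 0.11 and an adjusted p of 5.94e-05. The embryos were not of 1 sex, since *Xist* reached 1142 CPM in GCE/GCE replicate 1 but stayed at or under 2.63 CPM elsewhere. The threshold was an adjusted p of 0.1, and 285 genes or 1.82% of those tested passed it. In bulk RNA of this kind, fewer cells of a type and less RNA per cell cannot be told apart.

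The sorted cells expressed 9 of the 10 genes above the median of the tested genes. Levels are compared between genes as CPM per kb of exon length, averaged over the 2 GCE/+ samples with the SD. *Mfap2*, the small microfibril glycoprotein, ranked first at 280 ± 28.7, followed by *Mfap4*, a fibrinogen-related protein that binds tropoelastin and fibrillin, at 189 ± 12.3. The fibrillin of embryonic tissue, *Fbn2*, came next at 84.9 ± 2.59, and *Eln* itself after it at 69.1 ± 10.9. *Emilin1* had 58.1 ± 0.232, and *Efemp2*, which encodes fibulin-4, had 47 ± 2.81. *Fbn1*, the other fibrillin, had 36.8 ± 0.191 CPM per kb, and *Emilin2* had 25.9 ± 1.31. *Fbln5*, which encodes fibulin-5, had 15.9 ± 2.65. *Mfap5* was far below the rest at 4.36 ± 1.8 CPM per kb, where the median of all 15472 tested genes with a known length was 6.49. No neighbours in this order overlapped between the 2 GCE/+ samples. The order of the GCE/GCE means was the same, from 267 ± 8.05 for *Mfap2* to 1.58 ± 0.484 for *Mfap5*, but there *Eln* (76.9 and 53.5 CPM per kb) overlapped *Emilin1* (50.8 and 57.1 CPM per kb). With coding length in place of exon length, *Fbln5* moved from rank 9 to rank 7, *Emilin1* and *Efemp2* changed places at ranks 5 and 6, and the first 4 and the last kept their ranks.

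**Figure D1:**
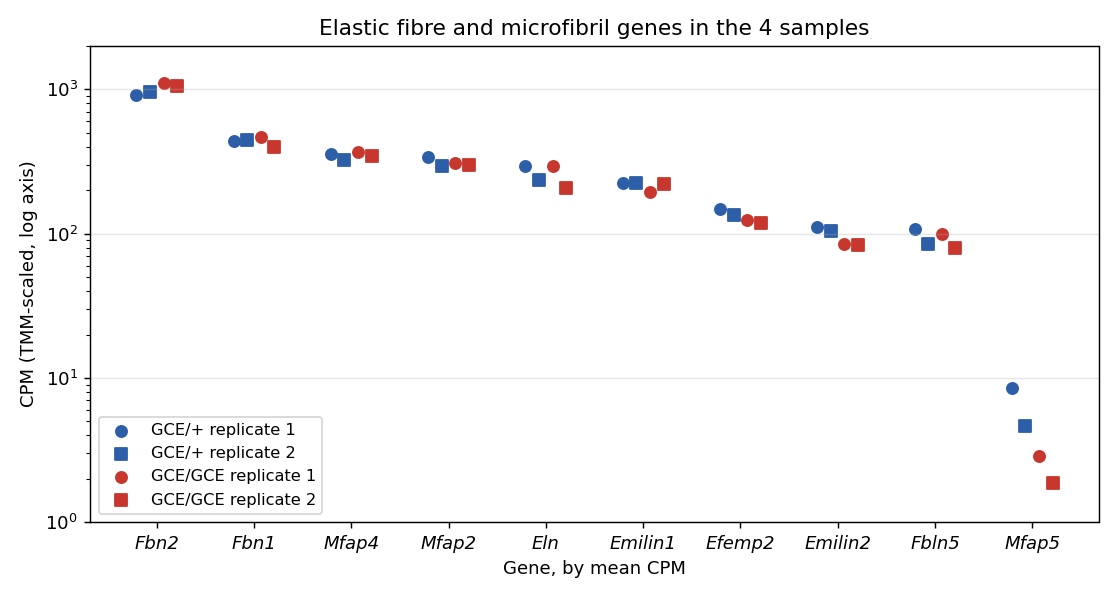
CPM of each of the 10 genes (x axis, ordered by mean CPM) in the 2 GCE/+ and the 2 GCE/GCE samples. The y axis is logarithmic, and points are samples. *Mfap5* is the gene whose GCE/GCE samples (2.89 and 1.86 CPM) lie farthest below its GCE/+ samples (8.49 and 4.65 CPM) in relative terms, while *Eln* spreads more within each genotype than between them.

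*Mfap5* was the member that edgeR called lower in GCE/GCE cells. Its product MAGP2 sits on fibrillin microfibrils and also binds Notch ligands and TGF-beta family members. The GCE/+ samples had 517 and 243 counts, or 8.49 and 4.65 CPM, and the GCE/GCE samples had 168 and 114 counts, or 2.89 and 1.86 CPM. Both mutant samples lay below both controls, with a mean of 2.38 ± 0.73 CPM (SD, n = 2) against 6.57 ± 2.72 CPM, which is 36.2% of the control level. The log2 fold change was -1.47 (SE 0.31, 95% interval -2.19 to -0.75), and the Benjamini-Hochberg adjusted p of edgeR was 0.0866. The difference in log2 mean, -1.44, exceeded the distance between replicates, which was 0.87 in GCE/+ and 0.64 in GCE/GCE cells. Among the 10 members this was 1 call, lower, beside 1.82% of all tested genes called in either direction, 0.927% called lower and 0.895% called higher. Without GCE/GCE replicate 1, the embryo with high *Xist*, the log2 fold change of *Mfap5* was -1.83. Without GCE/+ replicate 1 the call was lost, with a log2 fold change of -0.97 and an adjusted p of 0.255 with edgeR, in a fit that takes the spread from the GCE/GCE samples and assumes that the lone control varies like them. It was also lost with robust quasi-likelihood (0.13), with upper quartile normalization (0.111) and without the filter on low counts (0.181). *Mfap5* lies on chromosome 6 of GRCm38, from 122505845 to 122529290. The study had plotted *Mfap5* and *Emilin2* among genes that it selected from these libraries, so their direction here is not independent evidence.

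*Emilin2* came next and stood at the threshold. The EMILIN proteins lie at the border between elastin and microfibrils. *Emilin2* had 112 and 104 CPM in control cells and 84.4 and 83 CPM in mutant cells, so that the groups did not overlap and the mutant mean was 77.7% of the control mean. Its log2 fold change was -0.36 (SE 0.08, 95% interval -0.55 to -0.18) and its adjusted p 0.1003 with edgeR's quasi-likelihood test, just above 0.1. Without GCE/GCE replicate 1 the log2 fold change was -0.38 (adjusted p = 0.164, edgeR). With DESeq2, the tool named in the study's methods, the adjusted p was 0.0243. DESeq2 thus called 2 members lower, *Mfap5* (adjusted p = 0.000346) and *Emilin2*, where it called 3.45% of all genes in either direction and 1.69% lower. *Emilin1* had 225 and 223 CPM in control cells and 196 and 219.8 CPM in mutant cells. The mutant samples were again below both controls, but the second by a small step, and the log2 fold change of -0.11 (95% interval -0.31 to 0.09) did not pass (adjusted p = 0.815, edgeR).

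The fibulins that assist tropoelastin assembly did not pass the test. *Efemp2*, whose product fibulin-4 binds lysyl oxidase and is needed for elastic fibre formation, had 147 and 135 CPM in control cells and 124 and 118 CPM in mutant cells. The groups did not overlap, and the mutant mean was 85.6% of the control mean. Its log2 fold change of -0.22 (95% interval -0.42 to -0.03) had an unadjusted p of 0.0273 and an adjusted p of 0.36 in edgeR's test. *Fbln5*, whose product binds tropoelastin and cell-surface integrins, had 108 and 84.8 CPM in control and 99.6 and 80.2 CPM in mutant cells. Replicate 1 was the higher in both genotypes and the groups overlapped. The log2 fold change of *Fbln5* was -0.1 (95% interval -0.41 to 0.22, adjusted p = 0.928, edgeR).

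*Eln*, which encodes the elastin precursor tropoelastin, had 296 and 236 CPM in control cells and 296 and 206 CPM in mutant cells. The first replicates of both genotypes were level with each other, and the groups overlapped. The replicates of *Eln* were 0.32 (GCE/+) and 0.52 (GCE/GCE) apart on the log2 scale, against -0.1 between the genotype means, with a log2 fold change of -0.08 (95% interval -0.47 to 0.31, adjusted p = 0.957, edgeR). With 2 samples in each group, any change of *Eln* within that interval is compatible with these values.

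The fibrillins that form the microfibril backbone did not pass either. *Fbn2*, which prevails in embryonic tissue, had 917 and 957 CPM in control cells and 1104 and 1048 CPM in mutant cells. It was the 1 member whose mutant samples both lay above both controls, with a log2 fold change of 0.2 (95% interval -0.04 to 0.44, adjusted p = 0.607, edgeR). *Fbn1*, the gene mutated in Marfan syndrome, had 441 and 444 CPM in control cells and 467 and 398 CPM in mutant cells, which enclosed the controls. Its log2 fold change was -0.03 (95% interval -0.27 to 0.20, adjusted p = 0.971, edgeR). In these libraries the log2 fold change rose with exon length across 15472 genes (Spearman's rho 0.258, genes not being independent replicates), and fibrillin transcripts are long. With offsets for that trend the log2 fold change of *Fbn2* was 0.04 and that of *Fbn1* was -0.21, neither past the threshold.

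The 2 abundant microfibril glycoproteins did not differ beyond their replicate spread. *Mfap2* had 341 and 295 CPM in control cells and 311 and 298 CPM in mutant cells, with a log2 fold change of -0.07 (95% interval -0.29 to 0.16, adjusted p = 0.93, edgeR). *Mfap4* had 354 and 323 CPM in control and 366 and 347 CPM in mutant cells, with a log2 fold change of 0.07 (95% interval -0.13 to 0.28, adjusted p = 0.91, edgeR). In both genes the genotypes overlapped.

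Over the 10 members, the log2 fold change was negative in 8 and positive in 2, with a median of -0.09 beside 0.003 for all tested genes. Without 1 sample in turn the median of the members ran from -0.21 (without GCE/GCE replicate 1) to 0.01 (without GCE/GCE replicate 2). In 4 members both mutant samples lay below both controls and in 1 both lay above, where 19.1% and 19.2% of all tested genes did so, 38.4% together. An unadjusted p under 0.05 was found in 3 members, *Mfap5*, *Emilin2* and *Efemp2*, and in 10.5% of all tested genes. The genotype difference exceeded both replicate differences in 4 members, *Fbn2*, *Mfap5*, *Efemp2* and *Emilin2*, and in 25.1% of all tested genes. The summed CPM of the members was 2948 and 2808 in control cells and 3051 and 2799 in mutant cells, which overlapped.

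**Figure D2:**
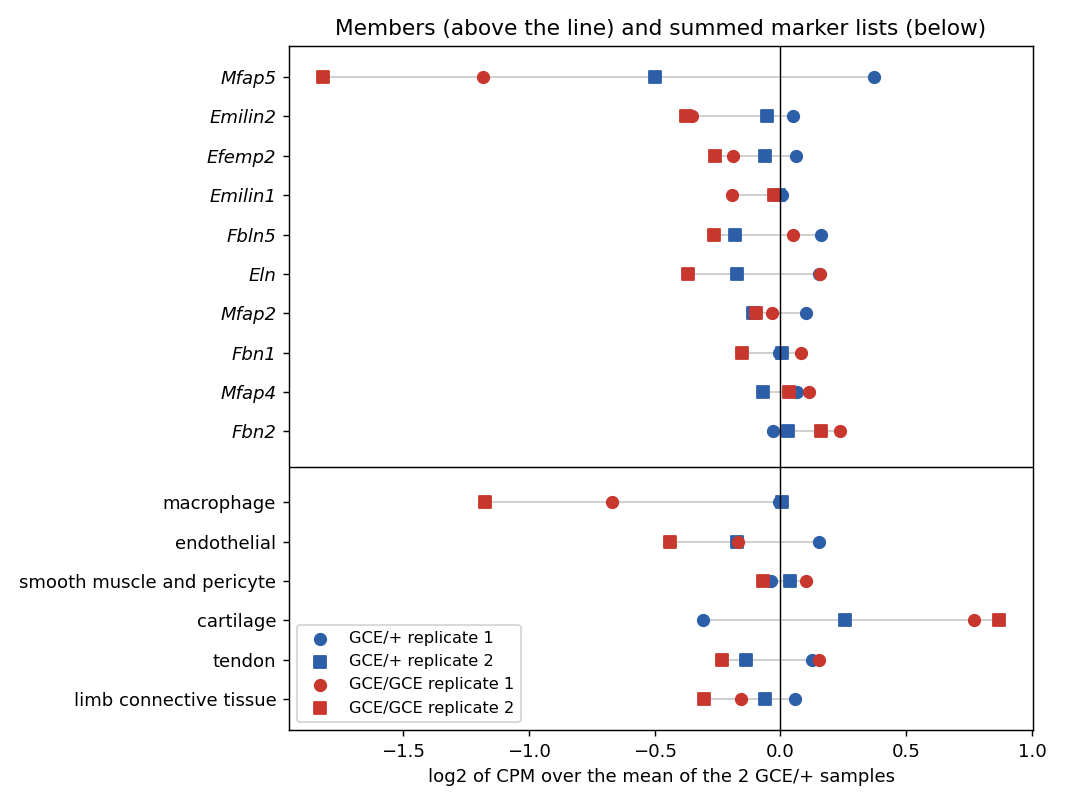
Level of each member (above the line, 1 gene per row) and of the summed CPM of 6 marker lists (below the line) in each sample, as log2 of CPM over the mean of the 2 GCE/+ samples. Points are samples and grey lines span their range. The GCE/GCE samples of *Mfap5* and of the macrophage list lie to the left of the controls, those of the cartilage list to the right.

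Markers of other cell types also differed between the sorted samples. For comparison with the counts below, edgeR called 1.82% of all tested genes and DESeq2 3.45%. An unadjusted p under 0.05 in edgeR's test was found in 10.5%. Limb connective tissue markers were strongly expressed, with a summed 18770 and 17266 CPM in control and 16167 and 14605 CPM in mutant cells, and 0 of 9 passed with edgeR, where 3 had an unadjusted p under 0.05, against 4 called lower with DESeq2. All 11 tested macrophage markers were lower in both mutant samples than in both controls, beside 19.1% of all tested genes. Of these, 8 were called lower by edgeR (*Csf1r*, *Mrc1*, *C1qa*, *C1qb*, *C1qc*, *Ptprc*, *Tyrobp* and *Cx3cr1*). The list summed to 333 and 335 CPM in control and 211 and 148 CPM in mutant cells. All 12 cartilage markers were higher in both mutant samples than in both controls, beside 19.2% of all tested genes. All 12 had an unadjusted p under 0.05 in edgeR's test. Of these, 6 were called higher by edgeR (*Sox9*, *Sox5*, *Sox6*, *Col9a1*, *Col9a2* and *Col11a1*). The list summed to 925 and 1367 CPM in control and 1954 and 2094 CPM in mutant cells. Of 9 tendon markers, edgeR called 4 higher (*Mkx*, *Tnmd*, *Fmod* and *Tnc*) and 1 lower (*Kera*). DESeq2 also called *Scx* higher (adjusted p = 0.0184). The sum of the tendon markers overlapped, from 5125 to 6137 CPM in GCE/+ and from 4796 to 6260 CPM in GCE/GCE cells. Its largest entries were *Col1a1* (mean 3397 CPM in GCE/+ and 3045 CPM in GCE/GCE cells) and *Egr1* (1513 and 1554 CPM). Both of these overlapped between the genotypes, so the sum says little about the less abundant markers. Endothelial markers summed to 110 to 138 CPM in GCE/+ and 91.3 to 110.2 CPM in GCE/GCE cells, with 0 of 10 called by edgeR, 5 at an unadjusted p under 0.05 and 1 called lower by DESeq2. The smooth muscle, skeletal muscle, erythroid, Schwann cell and epidermal lists had 0 genes called by edgeR and by DESeq2. Each had 0 to 2 genes at an unadjusted p under 0.05. The erythroid marker *Hba-a1* was at 0 in all samples, but this does not show that erythroid RNA was absent. Across the 4 samples the erythroid sum lay between 172 and 506 CPM. The most abundant erythroid markers were *Hbb-y*, from 152 to 449 CPM, and *Hba-x*, from 16.4 to 48.9 CPM. No macrophage or cartilage marker in the data was at 0 in all samples. The part of these cell types in the values of *Mfap5* and *Emilin2* was not tested.

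The balance between paralogs does not depend on how libraries are scaled. For every 100 reads of *Mfap2* there were 2.49 and 1.57 reads of *Mfap5* in control cells and 0.931 and 0.625 in mutant cells, a difference of -1.37 in log2 ratio. The corresponding values for *Emilin2* per 100 reads of *Emilin1* were 49.7 and 46.5 in control and 43.2 and 37.7 in mutant cells, a difference of -0.25. For *Fbn2* per 100 reads of *Fbn1* they were 208 and 216 in control and 236 and 263 in mutant cells, a difference of 0.24. The genotypes did not overlap in any of the 3 ratios. Each had a two-sided exact permutation p of 0.333 (adjusted p over the 3 ratios 0.333), which is the smallest that 2 samples against 2 can give.

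**Figure D3:**
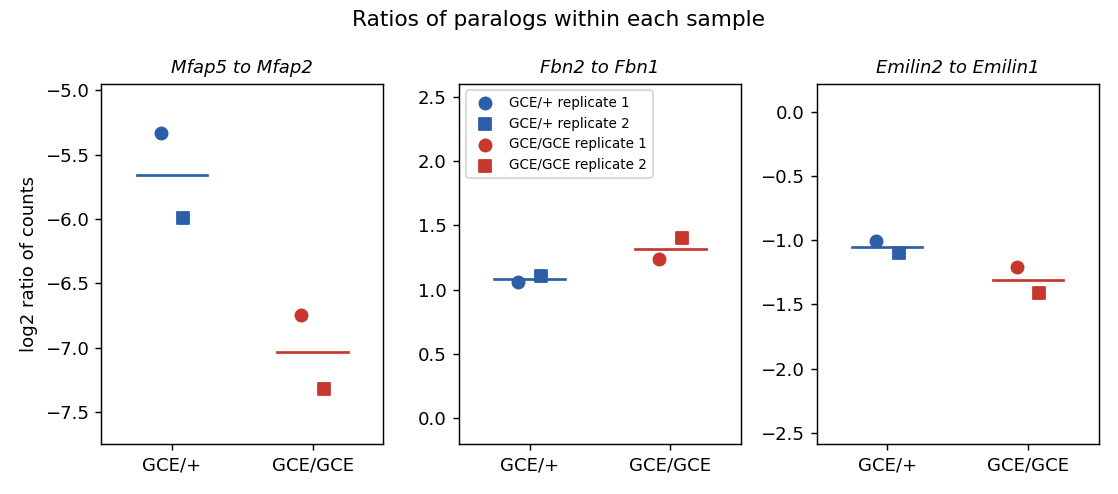
Log2 ratio of the counts of *Mfap5* to *Mfap2*, *Fbn2* to *Fbn1* and *Emilin2* to *Emilin1* (y axis, the same length of scale in each panel) in GCE/+ and GCE/GCE samples. Points are samples and lines are group means. The first ratio is lower in GCE/GCE cells by 1.37, against 0.25 for *Emilin2* to *Emilin1*, and that of *Fbn2* to *Fbn1* is higher by 0.24.

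Proteins that assemble, crosslink or bind elastic fibres were examined as a list of 27 partner genes. All were tested, and 1 was called higher and 0 lower, beside 1.82% of all genes. The median log2 fold change was 0.02 (range -0.83 to 0.62). An unadjusted p under 0.05 in edgeR's test was found in 8, beside 10.5% of all tested genes. Both mutant samples lay above both controls in 7 and below both in 4, beside 19.2% and 19.1% of all tested genes. The gene called higher was *Adamtsl3*, of the ADAMTS-like family of secreted proteins that bind fibrillin. It had 19.6 and 18.5 CPM in control cells and 28.5 and 30.2 CPM in mutant cells, with both mutant samples above both controls, a log2 fold change of 0.62 ± 0.1 (SE) and an adjusted p of 0.0368 in edgeR's test. DESeq2 called 3 partners higher (1.77% of all genes), *Adamtsl3*, the lysyl oxidase family gene *Loxl2* and *Thsd4*, which encodes the fibrillin-binding ADAMTSL6. Without 1 sample in turn, the log2 fold change of *Adamtsl3* ran from 0.58 to 0.66. With transcript length offsets and a replicate block, *Adamtsl3* had an adjusted p of 0.106 (log2 fold change 0.54, edgeR) and *Loxl2* was called in its place. *Fn1*, whose product fibronectin provides the first scaffold for fibrillin, had the highest CPM in the list (not corrected for length), 2158 and 2389 CPM in control and 2596 and 2251 CPM in mutant cells, which overlapped (log2 fold change 0.09, adjusted p = 0.934, edgeR). *Loxl2* followed with 513 and 512 CPM in control and 695 and 623 CPM in mutant cells, which did not overlap (log2 fold change 0.36, adjusted p = 0.166 with edgeR and 0.0177 with DESeq2).

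Of 12 proteases that cleave elastin or neighbouring matrix, 8 had enough reads to be tested. In edgeR's test 3 of these had an unadjusted p under 0.05, beside 10.5% of all tested genes, and 1 was called lower, beside 0.927%. The one called was *Ctss*, the gene of cathepsin S, a lysosomal protease of macrophages and other antigen-presenting cells. It had 18 and 18.6 CPM in control cells and 11 and 8.58 CPM in mutant cells, and the groups did not overlap (log2 fold change -0.9, SE 0.14, adjusted p = 0.0349, edgeR). The summed macrophage markers were lower in the same samples, 333 and 335 against 211 and 148 CPM, and their part in this fall was not tested. *Ctsb*, the gene of cathepsin B, had 456 and 449 CPM in control and 360 and 304 CPM in mutant cells (log2 fold change -0.45, adjusted p = 0.11 with edgeR and 0.00389 with DESeq2), so that DESeq2 called 2 proteases lower, beside 1.69% of all genes. Without 1 sample in turn, the log2 fold change of *Ctss* ran from -1.1 to -0.73. *Mmp2*, the gelatinase of mesenchymal cells, had 402 and 413 CPM in control and 422 and 368 CPM in mutant cells, with a log2 fold change of -0.05 (adjusted p = 0.959, edgeR). *Mmp9* had 10.1 and 11.2 CPM in control and 11.3 and 11.7 CPM in mutant cells (log2 fold change 0.11). The leukocyte proteases *Mmp12*, *Elane* and *Prtn3* were at low levels. *Mmp12*, the macrophage elastase, had at most 4 counts in a sample, and *Elane*, the neutrophil elastase, at most 7 counts, while *Prtn3*, the gene of proteinase 3, had 41 to 63 counts. The stromelysin gene *Mmp3* was at 0 in all 4 samples, where 3 counts would be at most 0.0576 CPM.

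The 13 receptor genes code for integrin chains and the elastin receptor complex. Of these, 0 were called by edgeR and 0 by DESeq2, beside 1.82% and 3.45% of all genes. An unadjusted p under 0.05 in edgeR's test was found in 5, beside 10.5% of all tested genes. The median log2 fold change was -0.03 (range -0.46 to 0.39). *Itgb1*, the beta chain shared by many matrix receptors, had 692 and 695 CPM in control and 660 and 673 CPM in mutant cells (log2 fold change -0.06, adjusted p = 0.943, edgeR). *Itga5*, its partner in the fibronectin receptor, had 269 and 279 CPM in control and 276 and 262 CPM in mutant cells, which overlapped (log2 fold change -0.03, adjusted p = 0.97, edgeR).

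**Figure D4:**
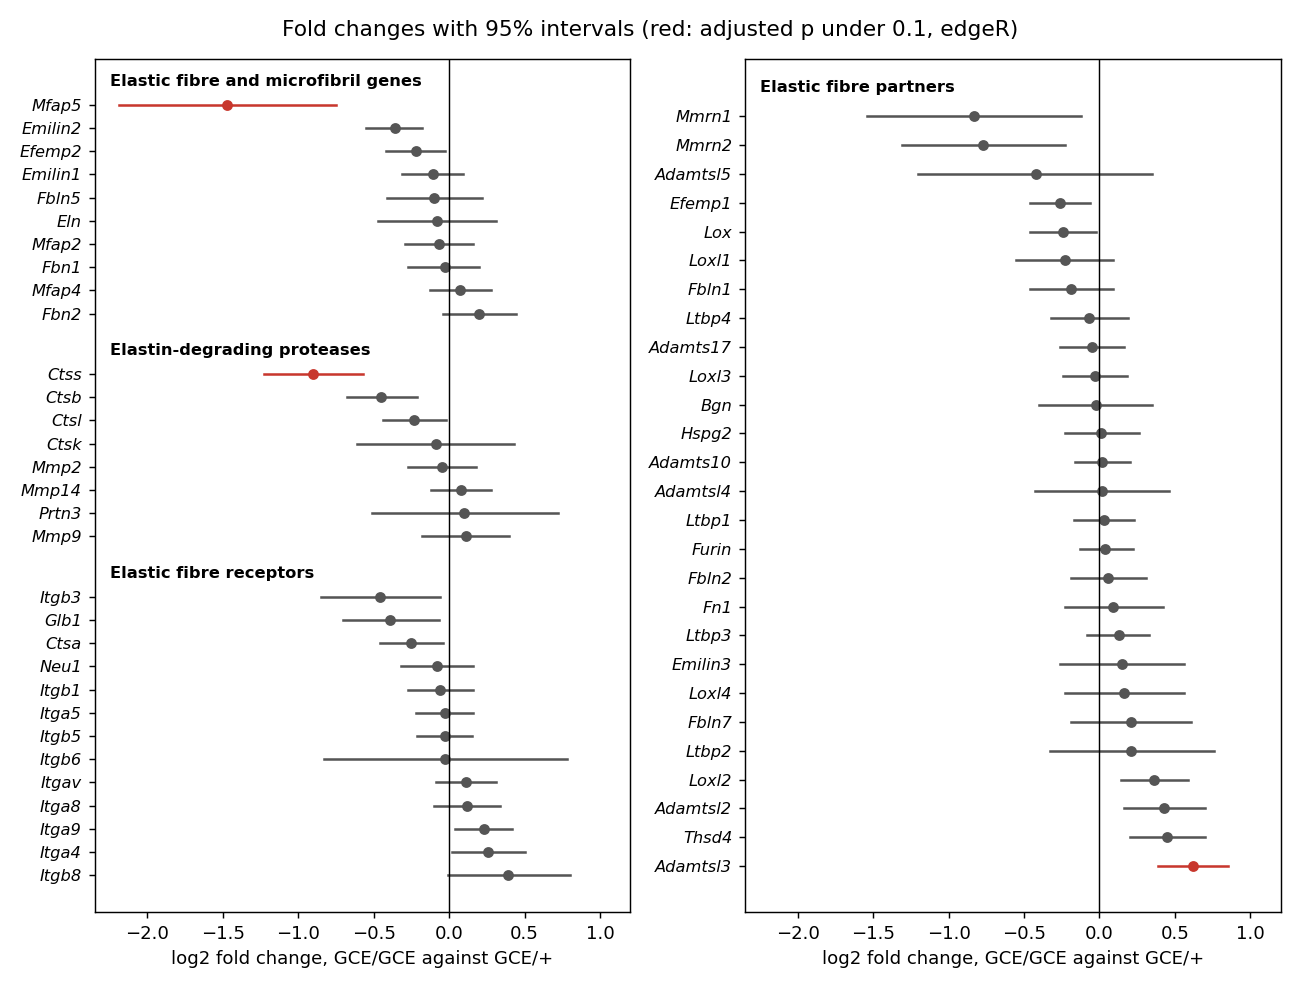
Log2 fold change of GCE/GCE against GCE/+ cells (x axis) with 95% intervals for the 10 members, 8 tested proteases and 13 receptors (left) and 27 partners (right), from edgeR. Red marks an adjusted p under 0.1, which *Mfap5*, *Ctss* and *Adamtsl3* reached.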

How the data were processed

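Live GFP-positive cells of E13.5 limbs were collected by FACS from 2 GCE/+ and 2 GCE/GCE embryos and their RNA was sequenced. Reads of 50 bp, in pairs, were aligned by the authors with TopHat2 to mm9, guided by a UCSC gene model, and fragments were assigned to genes by HTSeq (intersection-strict). Tool versions are not given in the sources used here. The deposited values are raw counts, whole numbers that were not normalized.

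Groups and replicate numbers were taken from the sample titles. Genes were filtered with filterByExpr, normalized by TMM and tested with edgeR 4.0.16 (glmQLFit and glmQLFTest in R 4.3.3), two-sided, with Benjamini-Hochberg adjustment over all 15645 genes and the threshold of 0.1 used in the study. Prior degrees of freedom were 6.381 and residual degrees of freedom 2. DESeq2 1.42.0 was the first alternative. The script was tested on simulated data. CPM were scaled by library size and TMM factors, which lay between 0.9936 and 1.006. Exon lengths, sequences and coordinates came from GENCODE (GRCm38), by symbol, 98% of symbols being matched and none converted from mm9.

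The members, the partner, protease and receptor lists and the 10 marker lists were chosen with earlier results of these data known. Genes named are all members, *Osr1*, listed genes past the threshold, the 2 most abundant genes of each list and defining markers at 0. Chosen after their values were seen were *Xist*, *Thsd4*, *Scx*, *Mmp9*, *Mmp12*, *Elane*, *Prtn3*, *Bgn*, *Ctsk* and the overlapping genes. *Adgre1*, 1 of the 12 listed macrophage markers, was not in the count data under that symbol, which left 11.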

Additional observations from a re-analysis of the deposited data

How the results depend on the processing

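The precision of these values is limited by 2 samples per genotype, and that of *Mfap5*, with 114 to 517 counts, by depth as well. A fit without 1 sample takes the spread from the other genotype and assumes that the lone sample varies like it. A p above the threshold does not show that a member was unaltered. Over all genes, 285 calls became 508 with DESeq2, 127 without the filter on low counts, 130 at an adjusted p under 0.05, and 199 to 961 without 1 sample in turn (961 without GCE/+ replicate 2 and 748 without GCE/GCE replicate 1). Of the members, 1 was called. The count was 2, *Mfap5* and *Emilin2*, with DESeq2, legacy quasi-likelihood, total count scaling, a minimum of 10 counts in every sample, and transcript length offsets without or with the replicate block. It was 0 with robust quasi-likelihood, upper quartile normalization, no filter and an adjusted p under 0.05, and 0 to 2 without 1 sample in turn. *Mfap5* was under 0.1 in 11 of 15 refits (adjusted p 5.82e-08 to 0.255, edgeR and DESeq2) and *Emilin2* in 7 (0.0243 to 0.341), and both kept their direction throughout. Partner calls, 1, became 3 with DESeq2 and 2 to 4 without 1 sample, and the 1 call with length offsets and the block was *Loxl2* instead of *Adamtsl3*. Protease calls, 1, became 2 with DESeq2, total count scaling and length offsets without or with the block, and 1 to 3 without 1 sample. Receptor calls were 0 to 1 without 1 sample. Without 1 sample in turn, the log2 fold change ran from -0.37 to 0.15 for *Eln* (0.08 without GCE/+ replicate 1, 0.15 without GCE/GCE replicate 2), from -0.27 to 0.08 for *Fbln5* (0.08 and 0.05 without these), from -0.17 to 0.04 for *Mfap2* (0.04 without GCE/+ replicate 1) and from -0.16 to 0.08 for *Fbn1* (0.08 without GCE/GCE replicate 2), and from -0.19 to -0.03 for *Emilin1* and 0.01 to 0.13 for *Mfap4*. The cause of these moves was not tested. The labels give no link between same-numbered samples beyond the number. Over 11180 genes, how far a sample lay from its genotype mean had a correlation of -0.004 between samples sharing a number. This value averages over genes, and a link limited to some of them was not tested. With the replicate number as a block, 290 genes and 1 member, *Mfap5* (log2 fold change -1.45, adjusted p = 0.0275, edgeR), were called.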

Other observations

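*Eln* and *Fbln5* shared a pattern between embryos. Both were over 1.2 times higher in replicate 1 than in replicate 2 of each genotype. The ratio was 1.25 (GCE/+) and 1.44 (GCE/GCE) for *Eln* and 1.27 and 1.24 for *Fbln5*. Of 7648 genes with at least 20 CPM in every sample, 48 or 0.628% had this pattern, and they included 4 of the 41 listed genes of that level. The other two were *Bgn*, the gene of the small proteoglycan biglycan, with 274 and 224 CPM in GCE/+ and 288 and 202 CPM in GCE/GCE cells, and *Ctsk*, the gene of cathepsin K, with 57.1 and 42 CPM in GCE/+ and 58.3 and 34.6 CPM in GCE/GCE cells. *Mfap5*, below that level, had ratios of 1.83 and 1.55. This pattern was looked for after the values were seen, replicate numbers mark no shared litter or batch in the labels, and no test was made of it.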
